A study of Mus musculus with 16 samples.

Results

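Expression of 46 genes of the Wnt pathway was compared in mouse hepatic stellate cells: the Wnt ligands, their Frizzled receptors and Lrp coreceptors, the secreted antagonists of the Sfrp, Dkk and Wif families, and the core intracellular genes Axin1, Axin2, Ctnnb1, Lef1, Tcf7l1 and Tcf7l2. They are the genes whose symbol in the platform annotation fits these family names, among 18193 genes that had a probe set with 1 symbol. Each gene was represented by the probe set with the highest mean over all 16 arrays, a choice that takes no account of group. The 46 members had 92 such probe sets, and 29 members had more than 1.

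Stellate cells are the retinoid-storing pericytes of the liver sinusoid, which turn into contractile, collagen-producing cells when the liver is injured. They were taken from male Balb/c mice aged 8 to 10 weeks by density centrifugation, and macrophages were removed in every group through the surface protein that Adgre1 encodes. RNA of each sample was hybridised to 1 oligonucleotide array. The quiescent group (5 arrays) came from normal mice and was plated for 24 h. The culture group (3 arrays) spent 5 days on plastic in medium with 10% fetal bovine serum, the usual way to activate these cells in a dish. The coculture group (2 arrays) was treated likewise, but shared its medium, across a transwell insert and without contact, with Kupffer cells (liver-resident macrophages). The design text gives this group 3 samples, of which 1 was not analysed here. For the bile duct ligation group (3 arrays) the common bile duct had been tied for 15 days, and for the CCl4 group (3 arrays) carbon tetrachloride had been injected intraperitoneally 4 times at 0.5 µl per g of body weight; cells of both were plated for 24 h after isolation. The quiescent, bile duct ligation and CCl4 cells therefore share a day on plastic. No label says whether the arrays of a group came from separate mice, so the p-values measure the spread between these samples.

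Wnt proteins are lipid-modified secreted signals that bind a Frizzled receptor together with Lrp5 or Lrp6. In the canonical branch, binding stalls a destruction complex built on Axin1, beta-catenin (Ctnnb1) accumulates, and it joins Tcf/Lef proteins on DNA to switch target genes on. Other branches run from Frizzled or Ror receptors to the cytoskeleton and cell polarity. Sfrp proteins and Wif1 bind the ligands, and Dkk1, Dkk2 and Dkk4 act on the Lrp coreceptors. In the liver, Wnt signals are best known for patterning the hepatocytes around the central vein, and stellate cells are a source of the R-spondin Rspo3, which strengthens them.

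Promoter sequences from RefSeq (assembly GRCm38.p6) were at hand for 31 of the 46 members, in 39 windows. The 250 bases before the start site are shown for Wnt4 and Fzd4, which differed among the groups, and for Fzd7, which carries a Tcf/Lef core word there. Of the 11 members that reached log2 5 on the arrays, Axin1, Dkk3, Fzd8 and Lrp6 had no window, and Fzd7 was the only one of the other 7 with that word. Capitals mark CTTTGTT, a word bound by Tcf/Lef factors, and GGGCGG, the GC box, on either strand (AACAAAG and CCGCCC where the match is on the other strand); overlapping GC boxes run together. The windows lie at chr4:137277385-137277634 (Wnt4), chr7:89404116-89404365 (Fzd4) and chr1:59481897-59482146 (Fzd7), all on the plus strand.
Wnt4: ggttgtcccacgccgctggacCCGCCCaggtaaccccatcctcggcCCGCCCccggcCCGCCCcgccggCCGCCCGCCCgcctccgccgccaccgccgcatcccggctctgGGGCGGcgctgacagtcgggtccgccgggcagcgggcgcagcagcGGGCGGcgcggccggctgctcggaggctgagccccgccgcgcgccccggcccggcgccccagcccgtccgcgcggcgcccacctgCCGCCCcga
Fzd4: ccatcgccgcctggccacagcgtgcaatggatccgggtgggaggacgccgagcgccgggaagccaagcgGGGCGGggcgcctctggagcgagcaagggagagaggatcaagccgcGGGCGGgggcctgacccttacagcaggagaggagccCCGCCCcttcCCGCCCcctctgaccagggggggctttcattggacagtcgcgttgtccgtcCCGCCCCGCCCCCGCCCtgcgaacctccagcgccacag
Fzd7: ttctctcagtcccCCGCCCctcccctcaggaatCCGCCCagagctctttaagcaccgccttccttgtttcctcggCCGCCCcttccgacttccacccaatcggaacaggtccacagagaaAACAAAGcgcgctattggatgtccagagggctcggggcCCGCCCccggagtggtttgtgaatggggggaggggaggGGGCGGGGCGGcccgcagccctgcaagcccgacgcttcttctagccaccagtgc
The word CTTTGTT occurred in 3 of the 39 member windows (Dkk1, Fzd7 and Tcf7l2) and in 5.03% of all 32851 windows. The related word CTTTGAT occurred in 2 member windows (Wnt11 and Wnt5b) and in 3.21% of all. The GC box occurred in 29 of the 39 member windows against 32.7% of all windows. These matches describe letters only.

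Expression is given as the deposited log2 value of a probe set, on which 1 unit is a doubling. Each array's median over its probe sets lay between 2.00 and 2.06, and values of about 2 and below are here called the floor. A probe set was taken as measured when it reached log2 5. Of the 46 members, 11 reached log2 5 on at least 2 arrays (23.9%, against 43.0% of all 18193 genes). They were 1 ligand (Wnt4), 5 receptors (Fzd1, Fzd4, Fzd5, Fzd7 and Fzd8), 1 coreceptor (Lrp6), 1 antagonist (Dkk3), and Axin1, Ctnnb1 and Tcf7l1.

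By group mean, all 11 reached log2 5 in the quiescent, culture and bile duct ligation groups. In coculture 10 did, Fzd8 falling short at 4.45, and in the CCl4 group 9 did, Fzd4 (4.66) and Fzd8 (4.90) falling short. Of all genes, 38.0% had a mean of at least log2 5 in the quiescent group, 37.8% in culture, 38.3% in coculture, 38.0% after bile duct ligation and 37.9% after CCl4. Axin1, Ctnnb1, Fzd1, Fzd5, Lrp6 and Tcf7l1 reached it on all 16 arrays, Dkk3 and Fzd7 on 15, Wnt4 on 14, Fzd4 on 13 and Fzd8 on 11. The nearest members outside were Fzd2, whose highest value was 4.61, Tcf7l2 (4.27), Wnt9a (4.13) and Fzd6 (4.07).

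The other 35 members never reached log2 5. They comprised 18 of the 19 ligands (Wnt1, Wnt2, Wnt2b, Wnt3, Wnt3a, Wnt5a, Wnt5b, Wnt6, Wnt7a, Wnt7b, Wnt8a, Wnt8b, Wnt9a, Wnt9b, Wnt10a, Wnt10b, Wnt11 and Wnt16), with values between 0.91 and 4.13. The receptors Fzd2, Fzd3, Fzd6, Fzd9 and Fzd10 lay between 1.27 and 4.61, and Lrp5 between 1.80 and 3.20. Among the antagonists, Sfrp1, Sfrp2, Sfrp4 and Sfrp5 lay between 0.67 and 2.84, Dkk1, Dkk2 and Dkk4 between 1.00 and 1.84, and Wif1 between 1.08 and 1.80. Axin2 lay between 1.58 and 3.43, and Lef1 and Tcf7l2 between 0.80 and 4.27. In 26 of the 35 no array reached log2 3. A value under log2 5 does not show that the gene is silent, and some of these values lay above the floor.

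**Figure D1:**
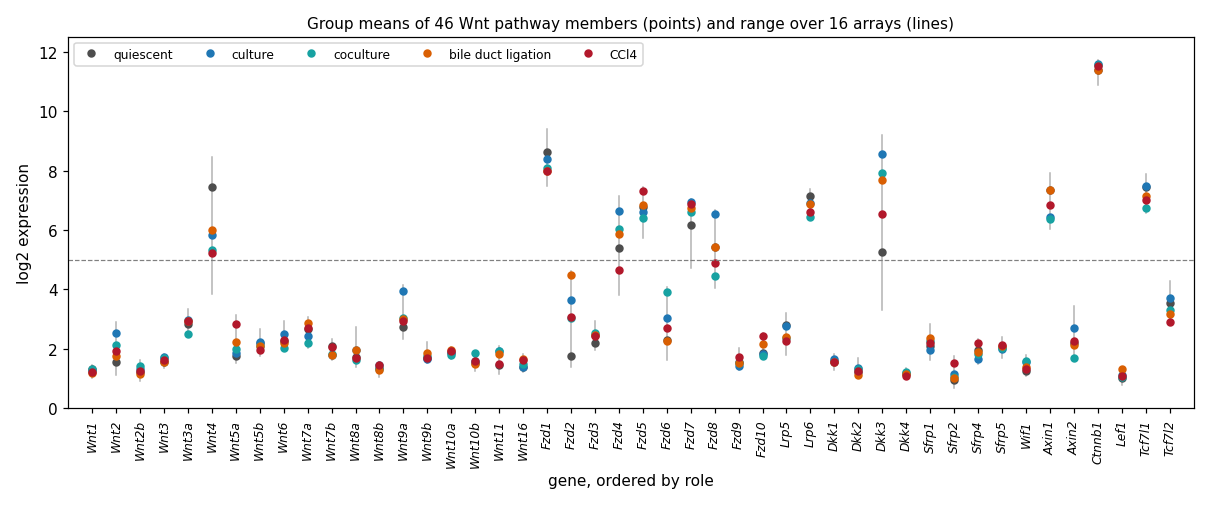
Log2 expression of the 46 members, ordered from ligands through receptors and antagonists to intracellular genes on the horizontal axis; points are the means of the 5 groups, vertical lines the range over 16 arrays and the dashed line log2 5. Only 11 genes have points above the line, and 1 of them, Wnt4, is a ligand.

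Quiescent replicate 4 and coculture replicate 2 stood apart from their groups. Quiescent replicate 4 was the lowest of the 5 quiescent arrays in 8 of the 11 measured members and the highest in 2, against 29.5% and 25.7% of all tested genes. Its mean over 12 stellate cell markers was 7.40 (8.12 to 8.22 on the other 4 quiescent arrays), and limma's array weights gave it the lowest weight, 0.33. In coculture the same mean was 7.32 in replicate 2 and 8.28 in replicate 3. Results that turn on either array are given without it as well. The stellate markers Des, Pdgfrb and Acta2 were high in every group, with group means of at least 7.83. Gfap and Ngfr had group means of 1.62 to 3.22, and the retinoid enzyme gene Lrat had 5.61 in quiescent cells and 3.81 after CCl4. Of 14 endothelial markers only Egfl7 was tested, with group means of 5.92 to 6.47 in 4 groups and 4.599 after CCl4, where it fell by 1.76 ± 0.32 (adjusted p = 0.00119, limma). Pecam1, Cdh5 and Stab2 had group means between 1.17 and 2.53. The mean over the 14 was 1.76 to 2.39 on every array but those of bile duct ligation, where it was 2.09 to 2.96, highest in replicate 2. Correlations between arrays were 0.929 to 0.983 within groups and 0.773 to 0.969 between groups.

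Of the 11 measured members, 6 differed among the 5 groups (limma's F-test, adjusted p over all 7823 genes tested), against 63.0% of all tested genes. They were Dkk3 (adjusted p = 0.000305), Fzd8 (0.00125), Axin1 (0.00486), Fzd4 (0.0170), Lrp6 (0.0272) and Wnt4 (0.0387). The 5 that did not pass were Ctnnb1 (0.787), Fzd1 (0.393), Fzd5 (0.265), Fzd7 (0.247) and Tcf7l1 (0.140). In each comparison a member is called changed when its Benjamini-Hochberg adjusted p from limma, over the 7823 genes, is under 0.05, and differences are log2 differences ± standard error.

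**Figure D2:**
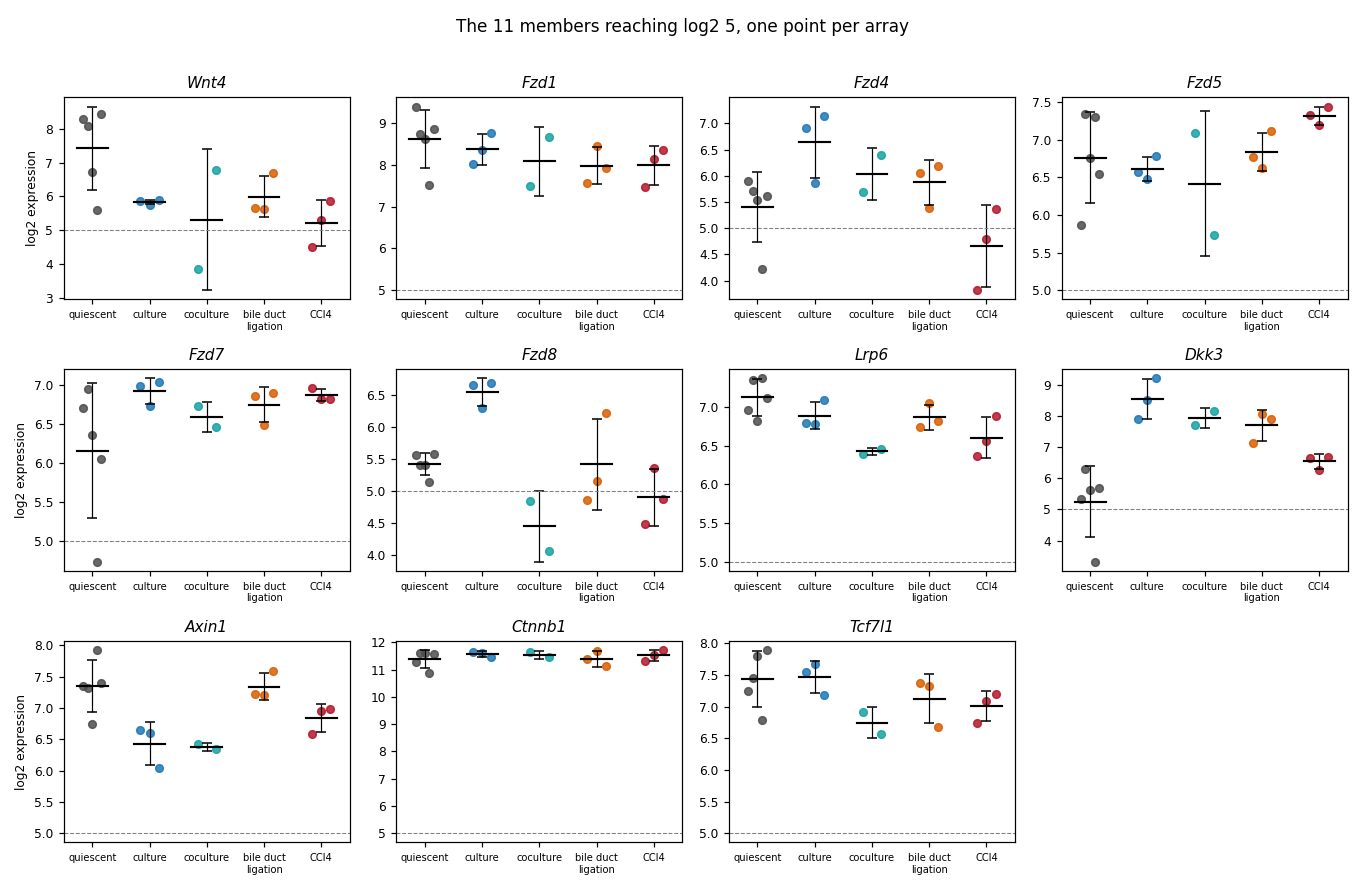
Log2 expression of the 11 measured members, 1 point per array, in the quiescent (5), culture (3), coculture (2), bile duct ligation (3) and CCl4 (3) groups; bars are means ± SD, the dashed line is log2 5, and each panel has its own vertical range. All Dkk3 arrays of the culture, coculture and bile duct ligation groups lie above the quiescent arrays, and Fzd8 is highest in culture.

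Wnt4 was the only ligand that reached log2 5. Its quiescent values were 8.30, 8.07, 6.73, 5.61 and 8.45 in replicates 1 to 5 (mean 7.43 ± 1.23 SD). Culture gave 5.86, 5.76 and 5.88, coculture 3.84 and 6.79, bile duct ligation 5.66, 5.62 and 6.71, and CCl4 4.49, 5.29 and 5.86. Quiescent replicates 1, 2 and 5 stood above all 11 other arrays, while replicates 3 and 4 overlapped with them. The gene's other probe set showed the same split of the quiescent arrays, at 7.32, 7.19 and 7.55 in replicates 1, 2 and 5 and at 4.84 and 3.13 in replicates 3 and 4.

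Wnt4 fell by 2.22 ± 0.66 after CCl4, to 0.215 of the quiescent level (adjusted p = 0.0257, limma), and by 2.12 ± 0.76 in coculture (adjusted p = 0.0371). The differences of −1.60 ± 0.66 in culture (adjusted p = 0.0627) and −1.44 ± 0.66 after bile duct ligation (adjusted p = 0.154) did not pass. Both passed without quiescent replicate 4, at −2.05 (adjusted p = 0.0114) and −1.89 (adjusted p = 0.0329), and that in culture also passed without either coculture array (adjusted p = 0.0298 and 0.0299). The call in coculture was lost without coculture replicate 2 (−0.64, adjusted p = 0.606) and without quiescent replicates 1, 2 or 5 (adjusted p 0.0666 to 0.0706). The call after CCl4 was lost without quiescent replicates 1, 2 or 5 (adjusted p 0.0524 to 0.0606), CCl4 replicate 1 (−1.86, adjusted p = 0.141) or CCl4 replicate 2 (adjusted p = 0.0639). On the probe set used, the order of the group means was quiescent, bile duct ligation, culture, coculture and CCl4. No difference among the last 4 passed in the comparisons made. The gene's other probe set did not show this order. Its differences from quiescent cells were alike, at −1.99 in culture, −2.10 in coculture, −1.98 after bile duct ligation and −1.98 after CCl4.

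Fzd8 is one of the Frizzled proteins that bind canonical Wnt ligands with Lrp6. It was 5.56, 5.40, 5.41, 5.15 and 5.58 in quiescent cells, 6.66, 6.30 and 6.68 in culture, and 4.84 and 4.06 in coculture. After bile duct ligation it was 4.86, 5.16 and 6.22, and after CCl4 4.48, 5.36 and 4.87. All culture arrays lay above every other array, and both coculture arrays below every quiescent and culture array. Fzd8 rose by 1.12 ± 0.29 in culture (2.18-fold, adjusted p = 0.00622, limma). In coculture it fell by 0.97 ± 0.33 against quiescent cells (adjusted p = 0.0319) and by 2.09 ± 0.36 against culture, to 0.235 of that level (adjusted p = 0.00135). Without each array in turn the last difference ran from −2.48 to −1.70 and passed each time. The difference from quiescent cells was lost without coculture replicate 3 (−0.58, adjusted p = 0.345) and without quiescent replicates 1 or 5 (adjusted p = 0.0537 and 0.0544). The gene's other probe set was dimmer, with group means of 2.16 in coculture and 3.32 in culture.

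Fzd4, which binds Norrin as well as Wnt ligands, was 5.91, 5.71, 5.53, 4.23 and 5.61 in quiescent cells and 6.91, 5.86 and 7.14 in culture. It was 5.69 and 6.39 in coculture, 6.05, 5.39 and 6.19 after bile duct ligation, and 3.82, 4.80 and 5.37 after CCl4. Of the culture arrays only replicate 2 overlapped with the quiescent ones, and quiescent replicate 4 lay far below its group. Fzd4 rose by 1.24 ± 0.42 in culture (2.36-fold, adjusted p = 0.0266, limma). It no longer passed when quiescent replicate 4 (0.95, adjusted p = 0.0506), culture replicate 1 (1.11, adjusted p = 0.0898) or culture replicate 3 (0.99, adjusted p = 0.123) was left out. Against quiescent cells the difference was 0.48 ± 0.42 after bile duct ligation and −0.73 ± 0.42 after CCl4, and neither passed (adjusted p = 0.478 and 0.230).

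The receptors Fzd1, Fzd5 and Fzd7 passed in no comparison. Fzd1 had group means from 7.98 to 8.62, with values of 7.51 to 9.39 in quiescent cells (median 8.74) and 7.47 to 8.76 in the other groups. Fzd5 had group means from 6.42 in coculture (arrays at 7.10 and 5.73) to 7.32 after CCl4 (7.33, 7.20 and 7.44). Fzd7 was 6.70, 6.96, 6.36, 4.74 and 6.05 in quiescent cells, with means of 6.59 to 6.92 in the other 4 groups. In Fzd7 quiescent replicate 4 was again the lowest array. Without it Fzd1 passed as lower after bile duct ligation (−0.92, adjusted p = 0.0490, limma) and after CCl4 (−0.91, adjusted p = 0.0424). Fzd7 passed as higher in culture without quiescent replicate 2 (0.96, adjusted p = 0.0340).

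Lrp6, the coreceptor shared by canonical Wnt ligands, was 6.96, 7.35, 6.82, 7.38 and 7.13 in quiescent cells and 6.80, 6.78 and 7.10 in culture. It was 6.40 and 6.46 in coculture, 6.75, 7.05 and 6.82 after bile duct ligation and 6.37, 6.56 and 6.89 after CCl4. Coculture was the one group with all arrays below the quiescent range. Lrp6 fell by 0.70 ± 0.19 in coculture (adjusted p = 0.0102, limma) and by 0.52 ± 0.17 after CCl4 (adjusted p = 0.0381). The call in coculture was lost without either coculture array (adjusted p = 0.0730 and 0.0562). That after CCl4 was lost without quiescent replicates 2, 4 or 5 or CCl4 replicates 1 or 2 (−0.52 to −0.40, adjusted p 0.0644 to 0.198). The gene's other probe set went against it there, with CCl4 arrays at 5.84, 5.84 and 6.38 inside the quiescent range of 5.09 to 6.57, and with the mean of both probe sets the difference was −0.12 (adjusted p = 0.730).

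Dkk3, a divergent Dickkopf protein that unlike Dkk1 is not known as an Lrp6 blocker, had the largest differences of the 11 measured members. It was 5.34, 6.29, 5.62, 3.32 and 5.68 in quiescent cells (mean 5.25 ± 1.13 SD, n = 5), 7.90, 8.52 and 9.21 in culture, and 7.70 and 8.16 in coculture. After bile duct ligation it was 7.12, 8.07 and 7.89, and after CCl4 6.66, 6.26 and 6.69. All arrays of the culture, coculture and bile duct ligation groups exceeded every quiescent array, and the CCl4 arrays overlapped with quiescent replicate 2.

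Dkk3 rose by 3.29 ± 0.49 in culture (9.78-fold, adjusted p = 0.000119, limma), by 2.68 ± 0.57 in coculture (6.41-fold, adjusted p = 0.00196) and by 2.44 ± 0.49 after bile duct ligation (5.43-fold, adjusted p = 0.00304). These 3 comparisons share the quiescent arrays. Without each array in turn the differences were 2.81 to 3.61, 2.20 to 2.94 and 1.96 to 2.73, and each passed. Without quiescent replicate 4 they were 2.81, 2.20 and 1.96. After CCl4 the difference was 1.29 ± 0.49 and did not pass (adjusted p = 0.0758); it passed without quiescent replicate 2 (1.55, adjusted p = 0.0367). Bile duct ligation and CCl4 were not shown to differ (1.15, 95% interval −0.02 to 2.33, adjusted p = 0.362). The gene's other probe set also lay higher in culture, coculture and after bile duct ligation than in quiescent cells, and after CCl4 its values of 4.88, 4.85 and 5.49 lay inside the quiescent range of 1.85 to 5.55.

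Axin1, the scaffold of the destruction complex, was 7.35, 7.32, 6.75, 7.93 and 7.41 in quiescent cells. It was 6.65, 6.61 and 6.04 in culture and 6.43 and 6.34 in coculture, 7.22, 7.21 and 7.59 after bile duct ligation, and 6.59, 6.96 and 6.98 after CCl4. All 5 arrays of cells kept for 5 days lay below every quiescent and bile duct ligation array. Axin1 fell by 0.92 ± 0.22 in culture (adjusted p = 0.00441, limma) and by 0.97 ± 0.26 in coculture (adjusted p = 0.00849). The call in culture held without each array in turn (−1.07 to −0.72), and that in coculture was lost without coculture replicate 3 (−0.92, adjusted p = 0.0687). After bile duct ligation the difference was −0.01 ± 0.22 (95% interval −0.49 to 0.47), and after CCl4 −0.51 ± 0.22 (adjusted p = 0.121), which passed without quiescent replicate 3 (−0.66, adjusted p = 0.0314).

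Ctnnb1, which encodes beta-catenin, had group means between 11.40 and 11.57, and its 16 arrays lay between 10.86 and 11.73. For the probe set used, the differences from quiescent cells were between 0.00 and 0.18, and the 95% intervals of the 4 comparisons lay within −0.36 and 0.62. The gene's other probe sets, also at log2 5 or above on all 16 arrays, varied more. They differed from quiescent cells by −0.15 and −0.33 after bile duct ligation and by 0.25 and 0.30 after CCl4. In the cultured groups they differed by −0.03 to 0.24. The array measures the Ctnnb1 transcript only, while the pathway regulates the protein. Tcf7l1, a Tcf factor known mainly as a repressor, was 7.25, 7.45, 7.80, 6.78 and 7.90 in quiescent cells and 6.92 and 6.57 in coculture (−0.69 ± 0.28, adjusted p = 0.0630, limma). The coculture value passed without quiescent replicate 4 (−0.85, adjusted p = 0.0137). In the other 3 groups Tcf7l1 had means of 7.01 to 7.47 and did not pass.

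Read by comparison, culture against quiescent cells called 4 of the 11 measured members (Dkk3, Fzd4 and Fzd8 higher, Axin1 lower), against 42.1% of all tested genes. The median difference was 0.04 over the 11 members and −0.05 over all genes. Coculture against quiescent cells called 5 (Dkk3 higher, and Wnt4, Fzd8, Axin1 and Lrp6 lower), against 38.7% of all tested genes, with a median of −0.54 over the members and −0.04 over all. The counts were 3 without coculture replicate 2 and 2 without coculture replicate 3. Coculture against culture called 1 (Fzd8 lower), against 15.4%. Bile duct ligation against quiescent cells called 1 (Dkk3 higher), against 16.9%, and CCl4 called 2 (Wnt4 and Lrp6 lower), against 22.0%. Whether the members' shares differ from those of all genes was not tested.

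Bile duct ligation against CCl4 called 0 of the 11, against 0.166% of all tested genes (limma). At an unadjusted p under 0.05 there was 1, Fzd4, which was 1.21 higher after bile duct ligation (95% interval 0.22 to 2.21, adjusted p = 0.266). The other probe sets of Fzd4, which were dimmer, gave 0.52 and −0.20. Culture against the mean of both injuries called 4 of the 11, against 50.9%: Fzd8 (1.38 ± 0.28, adjusted p = 0.000861), Dkk3 (1.43 ± 0.48, adjusted p = 0.0217) and Fzd4 (1.37 ± 0.41, adjusted p = 0.0109) were higher in culture, and Axin1 was lower (−0.66 ± 0.22, adjusted p = 0.0200). Without culture replicate 3 Dkk3 (1.09), Fzd4 (1.12) and Axin1 (−0.46) were lost, and without culture replicate 2 Dkk3 was lost (adjusted p = 0.0567). Cells of these groups also differed in time on plastic, 5 days against 24 h, which cannot be told apart from the route of activation.

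**Figure D3:**
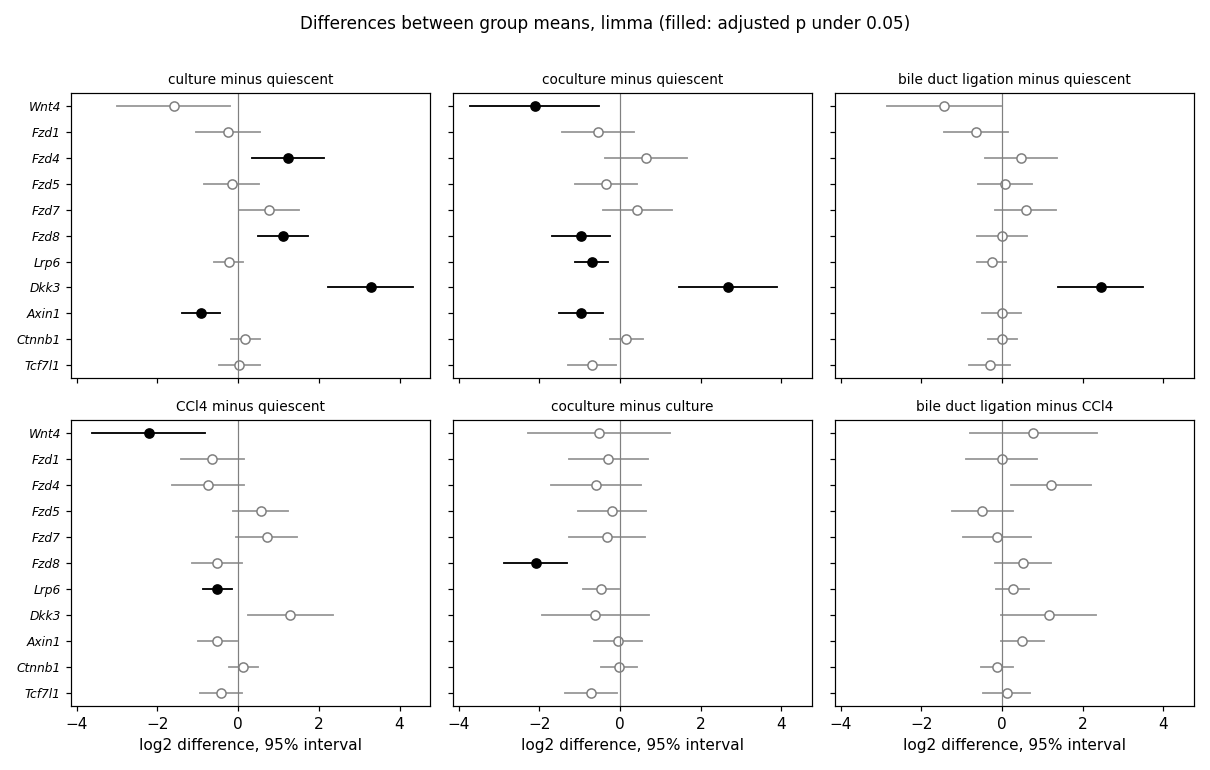
Log2 differences between group means for the 11 measured members in 6 comparisons, with 95% intervals from limma; filled points have an adjusted p under 0.05. Dkk3 is filled in the 3 comparisons of culture, coculture and bile duct ligation with quiescent cells, and no point is filled between the injuries.

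Markers of other cells moved with some groups. The mean over 10 hepatocyte markers per array was 1.54 to 2.19 in quiescent cells, 2.75 to 3.19 after bile duct ligation and 3.50 to 5.27 after CCl4, where 4 of the 10 reached log2 5 as a group mean (0 of 10 in quiescent cells). Alb went from 2.75 to 8.25 and 9.33, while Hnf4a lay between 1.91 and 1.99. The mean over 8 mesothelial markers was 1.57 to 1.92, 3.64 to 4.12 and 4.12 to 6.21 in the same groups, with Krt8, Krt18 and, after CCl4, Lrrn4 above log2 5. The mean over 6 portal fibroblast markers was 1.85 to 2.09 in quiescent cells and 2.51 and 2.67 in coculture. After bile duct ligation it was 3.18 to 3.70, and after CCl4 3.27 to 4.12. Only Fbln2 of the 6 reached log2 5 as a group mean. Fbln2 was 2.54 in quiescent cells, 6.86 in coculture, 8.35 after bile duct ligation and 7.79 after CCl4. Of 5 cholangiocyte markers only Krt19 reached log2 5 as a group mean, at 5.60 in coculture and at most 2.39 elsewhere. The mean over the 5 was 2.733 and 2.805 in coculture and 1.663 to 2.075 in quiescent cells. The mean over 12 macrophage markers was 1.99 to 2.24 in quiescent cells, 1.91 to 2.11 in culture, 2.28 and 2.46 in coculture, 2.496 to 3.60 after bile duct ligation and 2.52 to 3.05 after CCl4. Lyz2 had a mean of 2.02 in quiescent cells, 4.94 in culture, 5.49 in coculture, 5.91 after bile duct ligation and 5.46 after CCl4. Cd68, which other cells express too, had 7.02, 3.74, 7.82, 6.34 and 7.06 in the same order. Adgre1, whose protein was used for the depletion, and Clec4f had group means of at most 2.23. Stellate markers moved as well, with 10 of 12 matched ones tested. Against quiescent cells culture called 4 higher and 0 lower, coculture 2 and 3 (Pdgfrb, Reln and Lhx2 lower), bile duct ligation 2 and 2, and CCl4 2 and 4, and coculture against culture called 0 and 4. Of all tested genes 42.1%, 38.7%, 16.9%, 22.0% and 15.4% were called in these comparisons, in either direction. The median difference over the 10 was 0.80 in culture, −0.33 in coculture, −0.51 after bile duct ligation, −0.93 after CCl4 and −0.67 in coculture against culture. Over all tested genes these medians were −0.05, −0.04, −0.05, −0.05 and 0.01. The part of the marker shifts in the changes of Dkk3, Wnt4, Fzd8 and Lrp6 was not tested. The same holds for the other members and for the further pathway genes described below, Rspo3 and Wls among them. Fewer cells of a type and less RNA per cell cannot be told apart.

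Members below log2 5 were outside the main test. A fit over all 18193 genes without the threshold called some of them, and folds that start near the floor depend on the background step of the array processing. Fzd2, a receptor of canonical and Wnt5a signals, was the clearest. It was 1.92, 1.39, 1.89, 1.47 and 2.16 in quiescent cells and 4.61, 4.42 and 4.43 after bile duct ligation. Culture gave 3.22, 3.76 and 3.98, coculture 2.79 and 3.28, and CCl4 3.01, 2.82 and 3.37. All 11 other arrays exceeded every quiescent array. Fzd2 was called higher in culture (1.89, adjusted p = 2.02e-05, limma), coculture (1.27, adjusted p = 0.00227), after bile duct ligation (2.72, adjusted p = 9.36e-07) and after CCl4 (1.30, adjusted p = 0.00128). The coculture call was lost without coculture replicate 3 (1.02, adjusted p = 0.0657). Fzd2 was also higher after bile duct ligation than after CCl4 (1.42, adjusted p = 0.0249), the 1 dim member called in a comparison where 0.236% of all genes were, and a call lost without any of bile duct ligation replicates 1, 2 or 3 or CCl4 replicates 1 or 2 (adjusted p 0.0609 to 0.111). Its other probe sets had the same direction in the 4 comparisons with quiescent cells.

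In culture the unfiltered fit called 4 of the 35 dim members higher and 0 lower, against 19.4% of all genes in either direction. Besides Fzd2 they were the ligands Wnt9a (4.13, 3.63 and 4.03 in culture, 1.21, adjusted p = 0.00101, limma), Wnt2 (0.98, adjusted p = 0.00842) and Wnt11 (0.48, adjusted p = 0.0264). Wnt2 was lost without culture replicate 3 (0.79, adjusted p = 0.0588), and Wnt11 without quiescent replicates 2, 3 or 5 or culture replicates 1 or 2 (adjusted p 0.0506 to 0.122). In coculture the fit called 3 higher, against 18.9%, namely Fzd2, Fzd6 (4.07 and 3.76, 1.62, adjusted p = 0.00261) and Wnt11 (0.49, adjusted p = 0.0460), the last lost without any of 11 single arrays (adjusted p 0.0507 to 0.362). Fzd6 is a receptor of the polarity branch.

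After bile duct ligation Fzd2 was the only dim member called, against 7.88% of all genes. After CCl4 the fit called 4 higher, against 9.88%: Fzd2, Wnt5a (2.78, 2.63 and 3.15, 1.09, adjusted p = 0.00259, limma), the ligand of the non-canonical branch, and Sfrp2 and Fzd10 with group means of at most 2.43. Between coculture and culture it called 1, against 7.55%: Axin2, a feedback gene that beta-catenin switches on and a common readout of the canonical branch, was lower in coculture (−0.997, adjusted p = 0.0259). The gene's other probe set, with group means of 1.28 to 1.41, differed by 0.06. On the probe set used, Axin2 was 2.34, 2.31 and 3.43 in culture and 1.58 and 1.81 in coculture. The difference therefore rests in part on culture replicate 3, without which it was −0.63 (adjusted p = 0.0548). It was also lost without coculture replicate 2 (adjusted p = 0.221) or coculture replicate 3 (adjusted p = 0.0711). Culture against the injury mean called 5 dim members, against 25.6%: Wnt9a and Wnt2 higher, and Wnt5a, Fzd10 and Sfrp4 lower. Of these, Wnt2 was lost without culture replicates 2 or 3, bile duct ligation replicate 3 or CCl4 replicates 1 or 2 (adjusted p 0.0544 to 0.194), Wnt5a without culture replicates 2 or 3 (adjusted p = 0.0954 and 0.0676), and Sfrp4 without 7 of the arrays of these groups, each in turn (adjusted p 0.0557 to 0.208).

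**Figure D4:**
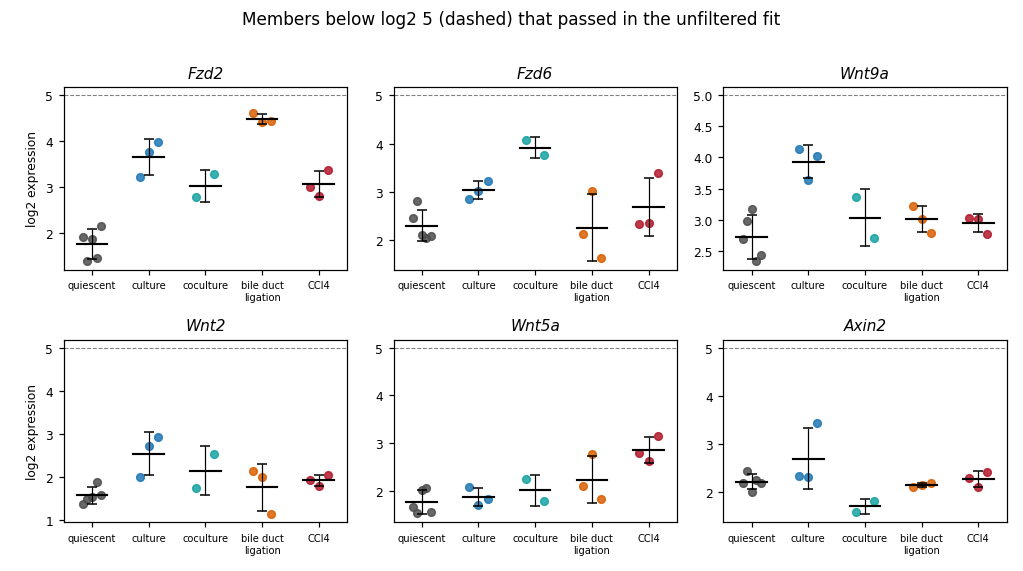
Log2 expression of 6 members below log2 5 that passed in the fit over all genes, 1 point per array in the 5 groups, with means ± SD and the dashed line at log2 5. Fzd2 lies between 1.39 and 2.16 in quiescent cells and between 2.79 and 4.61 in the other groups.

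The rest of the pathway was read from 7 lists of 115 further genes, of which 66 were tested: Wnt secretion, R-spondins and Frizzled turnover, other extracellular modulators, alternative receptors and planar polarity, the cytoplasmic relay, nuclear partners, and commonly used target genes. Culture against quiescent cells called 11 higher and 12 lower (34.8% of the 66, against 42.1% of all tested genes), and coculture 10 higher and 16 lower (39.4% against 38.7%). Coculture against culture called 7 higher and 3 lower (15.2% against 15.4%). Bile duct ligation called 5 higher and 8 lower (19.7% against 16.9%), and CCl4 5 higher and 11 lower (24.2% against 22.0%). Between the injuries 0 of the 66 were called, against 0.166% of all tested genes; 3 were with array weights, 2 with only the groups compared and 1 with the replicate block. The counts include Ror1, Prickle1, Nkd2, Ccn5 and Vcan, which were under log2 5 on every quiescent array. They entered the test only through arrays of other groups, so the filter itself favoured a difference. They are described by their values, with no test. Leaving out 1 array moved some counts by over 1.5 times: to 17 in coculture against quiescent cells without coculture replicate 3, and to 3, 5 and 6 in coculture against culture without coculture replicate 2, culture replicate 2 and culture replicate 3. Bile duct ligation had 8 without its replicate 2, and CCl4 had 9, 10 and 10 without its replicates 1 and 3 and quiescent replicate 5.

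Among 9 genes of the R-spondin and Frizzled turnover list only Rspo3 was tested. Rspo3 encodes a secreted protein that keeps Frizzled receptors on the cell surface. It was 11.71, 11.41, 11.26, 11.50 and 11.72 in quiescent cells and 11.05, 11.08 and 11.51 in culture, 8.92, 9.04 and 9.73 after bile duct ligation, and 8.25, 9.68 and 9.58 after CCl4. All 6 injury arrays lay below all quiescent and culture arrays. Rspo3 fell by 2.29 ± 0.31 after bile duct ligation (adjusted p = 0.000111, limma) and by 2.35 ± 0.31 after CCl4 (adjusted p = 7.78e-05). Culture exceeded the mean of both injuries by 2.01 ± 0.30 (adjusted p = 6.01e-05). In coculture the arrays were 9.88 and 10.97 (−1.10 ± 0.35, adjusted p = 0.0220), a call lost without coculture replicate 2 (−0.55, adjusted p = 0.359).

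Of 10 genes for Wnt secretion 7 were tested, and culture called 1 higher and 0 lower (42.1% of all tested genes were called). That was Wls, the carrier that takes Wnt proteins to the cell surface, which was 9.96 to 10.36 in quiescent cells (median 10.25) and 11.04, 10.99 and 11.15 in culture (0.84 ± 0.13, adjusted p = 0.000187, limma). After CCl4 it was 9.42, 9.61 and 9.40 (−0.74 ± 0.13, adjusted p = 0.00116). After bile duct ligation it was 9.66, 9.82 and 9.85 (−0.44 ± 0.13, adjusted p = 0.0335), a call lost without any of its 3 arrays or without quiescent replicates 1, 3 or 5 (adjusted p 0.0572 to 0.148). All 6 injury arrays lay below, and all 3 culture arrays above, the quiescent range. Tmed10, a carrier of the secretory route, fell by 0.67 ± 0.22 after CCl4 (adjusted p = 0.0374), a call lost without quiescent replicates 2, 3 or 5 or CCl4 replicates 1 or 2 (−0.68 to −0.52, adjusted p 0.0516 to 0.200), and Vps26a of the retromer was 0.60 ± 0.15 higher in culture than in the injury mean (adjusted p = 0.00416).

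Of 13 matched extracellular modulators 5 were tested, with 3 higher and 1 lower in culture (42.1% of all tested genes were called). The glypican Gpc4, a surface proteoglycan that binds Wnt ligands, rose by 1.36 ± 0.18 in culture (adjusted p = 4.71e-05, limma). Its coculture arrays, at 9.59 and 9.17, also lay above the quiescent range of 8.28 to 8.62. Gpc4 fell by 0.80 ± 0.18 after bile duct ligation (adjusted p = 0.00706), a call lost without bile duct ligation replicate 2 (−0.59, adjusted p = 0.0536), and by 0.90 ± 0.18 after CCl4 (adjusted p = 0.00278). Frzb, an antagonist of the Sfrp family under another name, was 9.89 to 10.39 in quiescent cells and 11.18 and 11.28 in coculture, where it rose by 1.05 ± 0.17 (adjusted p = 0.000222). In culture Frzb was 10.84, 10.76 and 10.24, and in the injury groups it was 10.03 to 10.50. Tspan12, a partner of Fzd4 in Norrin signalling, rose by 1.56 ± 0.22 in culture (adjusted p = 8.25e-05) and by 1.72 ± 0.26 in coculture (adjusted p = 0.000141). All injury arrays also exceeded its quiescent range of 5.45 to 6.19. They were 6.99, 6.90 and 6.22 after bile duct ligation and 6.49, 6.61 and 6.31 after CCl4. Igfbp4, a growth factor binding protein reported to hold back canonical signals, fell by 3.13 ± 0.45 in culture (adjusted p = 8.33e-05) and by 2.51 ± 0.52 in coculture (adjusted p = 0.00160), the latter lost without coculture replicate 2 (−1.51, adjusted p = 0.0632).

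Of 17 matched genes for alternative receptors and planar polarity 7 were tested. Ror1, a receptor tyrosine kinase for Wnt5a, was 3.20, 3.24, 2.87, 2.22 and 3.13 in quiescent cells. It was 5.78, 5.70 and 5.28 after bile duct ligation and 5.99, 5.46 and 5.70 after CCl4. The 6 injury arrays were the only ones that reached log2 5, and through them the gene entered the test. Prickle1, a polarity protein, was 1.47 to 3.09 in quiescent cells and 4.67, 5.17 and 6.49 in culture. Scrib, another polarity protein, fell by 1.23 ± 0.20 in culture (adjusted p = 0.000198, limma). Its coculture arrays, at 5.34 and 5.01, also lay below the quiescent range of 5.57 to 6.35, with which the injury arrays (5.30 to 5.66) overlapped. Mcc fell by 2.69 ± 0.40 in coculture (adjusted p = 0.000132, limma). The arrays of the other groups also all lay below its quiescent range of 6.82 to 8.12. They were 5.58 to 6.37 in culture, 5.69 to 6.62 after bile duct ligation and 5.89 to 6.46 after CCl4.

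In the cytoplasmic relay (21 of 26 tested) culture called 3 higher and 0 lower and coculture 2 higher and 1 lower, where 42.1% and 38.7% of all tested genes were called. Nkd2, an inhibitor that binds Dishevelled, was 2.43 to 4.11 in quiescent cells, 3.46, 2.45 and 1.98 in culture and 7.09 and 4.30 in coculture. The coculture arrays were far apart, and besides coculture replicate 2 only CCl4 replicate 3 (5.82) reached log2 5. Tnks, which marks Axin for destruction, rose by 0.82 ± 0.16 in culture (adjusted p = 0.000692, limma), and Fbxw11, which marks beta-catenin for it, rose by 0.34 ± 0.09 (adjusted p = 0.00981; 0.17, adjusted p = 0.241, with the mean of its probe sets). Apc, a core part of the destruction complex, fell by 0.54 ± 0.12 after bile duct ligation (adjusted p = 0.00547, limma), and with the mean of its probe sets the difference was −0.37 (adjusted p = 0.153). Its CCl4 arrays, at 7.98, 8.21 and 8.27, also lay below the quiescent range of 8.33 to 8.66.

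Of 19 nuclear partners 13 were tested. Culture called 0 higher and 3 lower, coculture 0 and 6, and CCl4 0 and 3, where 42.1%, 38.7% and 22.0% of all tested genes were called in either direction. Bile duct ligation called 0 (16.9% of all). Smarca4, a chromatin remodeller that beta-catenin recruits, fell by 1.38 ± 0.16 in culture (adjusted p = 1.05e-05, limma) and by 1.31 ± 0.18 in coculture (adjusted p = 6.67e-05). Pygo2, a coactivator, fell by 0.90 ± 0.20 and 0.91 ± 0.23 (adjusted p = 0.00220 and 0.00590), the latter lost without coculture replicate 3 (−0.61, adjusted p = 0.132). Ctbp1, a corepressor, fell by 0.95 ± 0.18 and 1.01 ± 0.20 (adjusted p = 0.000637 and 0.00135) and after CCl4 by 0.79 ± 0.18 (adjusted p = 0.00574). Jup, which encodes plakoglobin, a close relative of beta-catenin, fell by 1.56 ± 0.36 in coculture (adjusted p = 0.00323) and by 1.39 ± 0.31 after CCl4 (adjusted p = 0.00559).

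Of 27 matched target genes 13 were tested, and against quiescent cells they did not move one way. Culture called 2 higher and 6 lower, coculture 2 and 4, bile duct ligation 3 and 2, and CCl4 2 and 1. Of all tested genes 42.1%, 38.7%, 16.9% and 22.0% were called in these comparisons. Coculture against culture called 4 higher and 0 lower (15.4% of all tested genes were called). The median there was 0.46 over the 13 and 0.01 over all. Culture against the injury mean called 4 higher and 8 lower (50.9% of all), with medians of −1.05 and −0.02. Ccn5 (also Wisp2) was 1.73 to 2.40 in quiescent cells and 6.74, 7.36 and 7.10 in culture. In coculture its arrays were far apart, at 3.76 and 6.78, and in both injuries it was at most 3.08. Cd44, a hyaluronan receptor, fell by 1.46 ± 0.20 in culture (adjusted p = 4.89e-05, limma) and rose by 1.05 ± 0.20 after bile duct ligation (adjusted p = 0.00183) and by 1.07 ± 0.20 after CCl4 (adjusted p = 0.00144). Vcan, a matrix proteoglycan, was 2.74 to 3.80 in quiescent cells and 2.40 to 3.83 in culture, 6.71 and 7.33 in coculture, 6.59, 7.92 and 6.37 after bile duct ligation and 5.27, 4.51 and 5.37 after CCl4. Fosl1, a transcription factor, fell by 4.46 ± 0.61 in culture (adjusted p = 5.31e-05). Many of these targets also answer to other pathways. The direct targets Lgr5, Sp5, Notum and Rnf43, named here after their values were seen, had group means of 1.23 to 1.83 and were not tested.

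**Figure D5:**
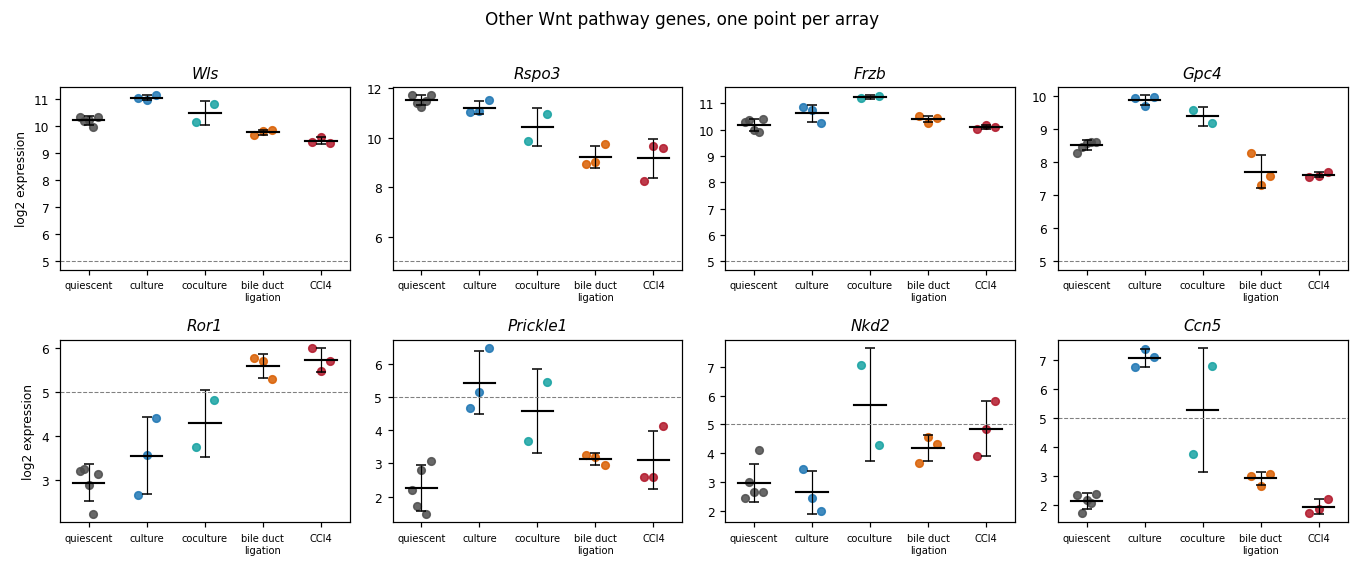
Log2 expression of 8 further Wnt pathway genes, 1 point per array in the 5 groups, with means ± SD, the dashed line at log2 5 and a separate vertical range per panel. Rspo3 is lower in all 6 arrays of the injury groups than in all 5 quiescent arrays. Wls and Gpc4 are higher in all 3 culture arrays than in all 5 quiescent arrays. Ror1, Prickle1, Nkd2 and Ccn5 entered the test only through arrays of groups other than quiescent, so the filter itself favoured a difference. All 8 genes were picked by a small adjusted F-test p.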

How the data were processed

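The deposited series table holds log2 expression values per probe set, made with GCRMA per the submitters' processing notes. The GCRMA version is a detail not given in the sources used here. GCRMA models background from probe sequence, so folds that start near the floor depend on it. Values of 45101 probe sets on 16 arrays ran from 0.04 to 13.88. Of these, 34958 had 1 gene symbol in the platform annotation, giving 18193 genes, of which 7823 reached log2 5 on 2 or more arrays and entered the tests. All 46 members were found by Entrez identifier in RefSeq (GRCm38.p6). One model with 5 group means was fitted with limma 3.58.1 in R 4.3.3 (lmFit, eBayes with trend), tests were two-sided, and p-values were adjusted by Benjamini-Hochberg over all tested genes at 0.05. The fit was tested on simulated data. The number of arrays limits the precision.

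All members passing the rule were named, and up to 4 genes per pathway list with the smallest adjusted F-test p. The members and lists were chosen with earlier results of these data known. Alternatives were no filter, a log2 7 filter, the mean of a gene's probe sets, median centring, no trend, array weights, only the groups compared, a replicate block and leaving out each array.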

Additional observations from a re-analysis of the deposited data

Results flagged for a closer look

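Fzd4 in quiescent replicate 4 was 4.23, a value far from the other 4 quiescent arrays (5.53 to 5.91) by Dixon's criterion (ratio of gap to range 0.777). The 11 measured members were examined in this way over the 5 quiescent arrays, and chance marks about 1 in 20 such groups. The same array was the lowest in 8 of the 11.

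Fzd8 differed between the cultured groups: with Kupffer cells behind the insert it was lower by 2.09 on the log2 scale than without them (coculture minus culture −2.09, limma's adjusted p = 0.00135), with both coculture arrays below and all 3 culture arrays above the quiescent range.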

How the results depend on the processing

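Of the called members, Dkk3 in culture, coculture and after bile duct ligation, and Axin1 in culture, kept direction and call under every alternative, as did Fzd8 in coculture against culture where it was tested. No called value changed sign under any alternative. Over members and comparisons, 1738 alternative values stayed on their side of the threshold, 22 gained a call and 39 lost one.

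The count of called members moved as follows. In culture against quiescent cells it was 4 in the main analysis, 8 with no filter, 2 with a log2 7 filter and 3 to 5 without single arrays. In coculture against quiescent cells it was 5, and 2 to 6 without single arrays (3 without quiescent replicates 1 or 5 or coculture replicate 2, and 2 without coculture replicate 3). In coculture against culture it was 1, with 2 under no filter or array weights, and 0 with the log2 7 filter or the mean of a gene's probe sets, both of which leave Fzd8 untested; without single arrays it was 1 each time. After bile duct ligation it was 1, 2 with no filter or array weights, and 1 to 3 without single arrays, 3 being without quiescent replicate 4. After CCl4 it was 2, 5 with no filter, 0 with the mean of probe sets, 1 with median centring or only the groups compared, and 0 to 3 without single arrays. Between the injuries it was 0, and 1 with no filter. In culture against the injury mean it was 4, 9 with no filter, 2 with the log2 7 filter or the mean of probe sets, and 1 to 4 without single arrays. By the F-test it was 6, 13 with no filter, 3 with the mean of probe sets and 4 to 7 without single arrays. Members reaching log2 5 were 11, but 7 with the mean of probe sets, and 14 reached log2 4. No filter adds dim members to the test, so its counts are out of 46 members and not 11. The mean of probe sets lowers genes with a dim probe set. Without the filter 19.4% of all 18193 genes were called in culture, 7.88% after bile duct ligation and 9.88% after CCl4. The share was 7.55% in coculture against culture, 0.236% between the injuries and 25.6% in culture against the injury mean. No share of all genes is given for the unfiltered F-test or the other alternatives. Those counts cannot be read as more or less change in the pathway. The cause of the other moves was not tested.

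Replicate numbers are shared between groups. Of 26 same-numbered pairs, 7 had deviations from the group means correlated above 0.1 (range −0.26 to 0.54). The numbers were not taken to pair the samples, but a pairing is not excluded. The same-numbered pairs of culture with coculture had correlations of 0.31 (replicate 2) and 0.54 (replicate 3). With 2 coculture arrays the deviations from their mean mirror each other, so these correlations cannot decide whether those samples were paired. With the replicate block the count after CCl4 was 1 and that of the F-test 5; those of 1 in coculture against culture, 1 after bile duct ligation and 0 between the injuries did not move. With it the counts stayed at 4 in culture and 5 in coculture, but not for the same members. In culture Fzd4 was lost (0.92, adjusted p = 0.0674, limma) and Wnt4 gained (−1.87, adjusted p = 0.0350), for 2 higher and 2 lower. In coculture Fzd8 was lost (−1.10, adjusted p = 0.0520) and Tcf7l1 gained (−0.77, adjusted p = 0.0427). After CCl4 Lrp6 was lost (−0.44, adjusted p = 0.138).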
